A study of Mus musculus with 4 samples.

Results

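The genes described here are the kallikrein-related peptidase genes Klk5, Klk6, Klk7, Klk8, Klk10, Klk11, Klk13 and Klk14, with Spink5 and St14. They were chosen by name, as every gene probe of the array that carries a listed symbol. Of the 10 genes, 9 had at least 1 such probe, and 8 of these passed the filter on dim probes, out of 15552 genes that passed it in all. No probe carried the symbol Klk13, so that gene was not analysed here. Klk14 had 1 probe, which was not well above background on any array. Expression was measured in whole back skin of mice 10 days old, on 4 one-colour arrays, 1 per animal. The knockout animals were Adam17flox/flox and positive for Krt14-Cre, so that Adam17, a membrane protease that sheds surface proteins, was deleted where the keratin 14 promoter is active (basal epidermis and outer hair follicle). They are called cKO, for conditional knockout. The control animals were Cre-negative littermates, from matings of Adam17flox/+ Krt14-Cre with Adam17flox/flox mice on a mix of 129Sv and C57BL/6. There were 2 animals per genotype, 1 of each from litter 1 and 1 of each from litter 2. As no control carried Cre, an effect of Cre itself and of the loss of ADAM17 cannot be told apart.

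Kallikrein-related peptidases are secreted serine proteases made as inactive precursors, mainly in the granular layer of the epidermis and in skin appendages. In the stratum corneum they cut the proteins of corneodesmosomes, the junctions that hold dead cells together, and so let the surface shed. KLK5 can activate itself and other kallikreins, the membrane protease matriptase (St14) can start that cascade, and LEKTI, the product of Spink5, inhibits it. Loss of LEKTI in people causes Netherton syndrome, with excess shedding and a leaky barrier.

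All values below are log2 signals relative to the 75th percentile of the array, and differences are cKO minus control. The 75th percentile lay between 751 and 784 in the processed signal, and each array had 43379 gene spots, of which 53.7% to 56.6% passed the scanner's test for a signal well above background. All 8 skin markers checked (keratins 1, 5, 10 and 14, loricrin, filaggrin and collagens 1 and 3) were well above background on all 4 arrays. Adam17 measured 69.0% of the control level in cKO skin with its brighter probe and 68.5% with the other. Many cells of whole skin never use the keratin 14 promoter, and the sources used here do not give the exons removed, so this checks the labels only in part.

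Among the kallikreins, Klk6, Klk8, Klk10 and Klk11 had higher signals on both cKO arrays than on both control arrays, by 3.24-fold, 1.89-fold, 1.29-fold and 1.51-fold on average. Klk5 was higher within each litter, but its groups overlapped. Klk7, the chymotrypsin-like kallikrein, differed by -0.10 with its brightest probe, with 1 cKO value between the controls and the other below both. St14 was slightly lower in cKO skin in each litter. Spink5 was nearly level in litter 1 (-0.05) and lower in litter 2 (-0.55). None of the 8 genes passed the test over all genes (limma, adjusted p of 0.05), where 53 genes, or 0.341%, passed (11 higher, 0.0707%, and 42 lower, 0.27%). With litter as a block 0 genes passed, and the lowest adjusted p over all genes was 0.0567. At an unadjusted p under 0.05, 4 of the 8 passed, all of them higher in cKO skin, against 16.2% of all genes in either direction, 8.04% higher and 8.11% lower. Within litters, 5 of the 8 were higher in cKO skin each time (40.4% of all genes) and 2 were lower each time (32.1%). The 4 of 8 genes whose cKO arrays lay above both controls compare with 28.0% of all genes, and the 1 of 8 below both controls with 21.4%. The median difference of the 8 genes was 0.30 (0.40 in litter 1 and 0.18 in litter 2), against 0.03 over all genes. It was 0.11 with another background correction (normexp) and 0.19 without control replicate 1. These counts describe the set and are no test of it.

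**Figure D1:**
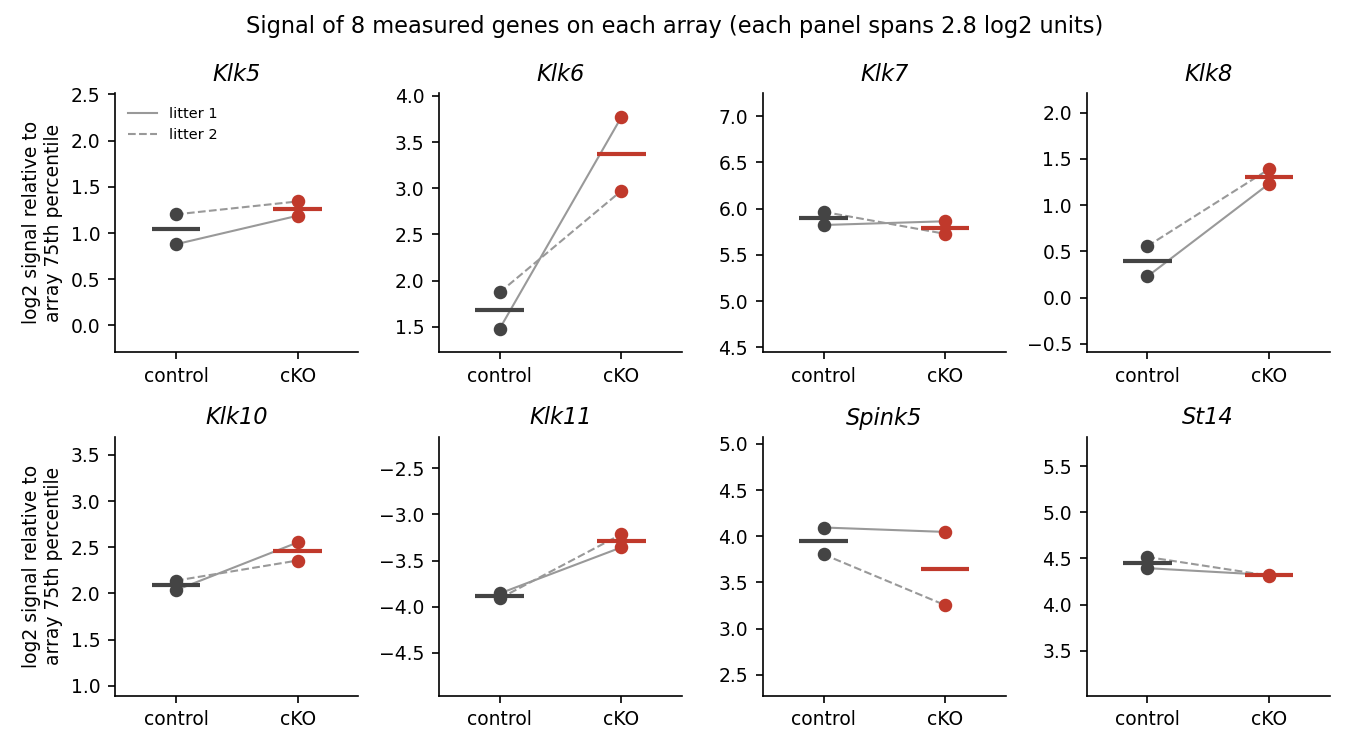
Log2 signal relative to the array's 75th percentile (vertical axis) in control (grey) and cKO (red) skin for the 8 measured genes; each point is 1 array, bars are group means of 2 arrays, and lines join littermates (solid litter 1, dashed litter 2). Every panel spans the same number of log2 units, so the steep lines of Klk6 and the flat ones of Klk7 and St14 can be compared directly.

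What each value reads is a probe of 60 bases. The probes of the 4 kallikreins higher on both cKO arrays than on both controls are given 5′ to 3′ in lower case as the files list them. With them is 1 of the 3 Klk7 probes, not the brightest but the one lower on both cKO arrays than on both controls.
Klk6: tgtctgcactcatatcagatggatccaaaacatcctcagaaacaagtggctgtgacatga
Klk8: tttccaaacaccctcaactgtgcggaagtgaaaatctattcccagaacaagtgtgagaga
Klk10: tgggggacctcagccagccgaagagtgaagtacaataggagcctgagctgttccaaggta
Klk11: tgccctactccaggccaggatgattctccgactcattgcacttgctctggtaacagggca
Klk7: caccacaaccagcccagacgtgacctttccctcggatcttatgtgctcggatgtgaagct
In the files' build, mm9, they lie on chromosome 7. The Klk6 probe is at 51084748 to 51084807 and the Klk8 probe at 51057455 to 51057514, each an unbroken stretch of the genome. The probes of Klk10 (51039077 to 51039720), Klk11 (51031869 to 51032254) and Klk7 (51068393 to 51068639) cover 644, 386 and 247 bases of the genome, so each crosses at least 1 splice junction. No exon annotation of this build was used here, and matches of the probes to related gene copies were not searched.

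Klk6, a trypsin-like kallikrein also known as neurosin, had the largest difference of the 8 genes. Its signal was 1.48 and 1.87 in the controls of litters 1 and 2, and 3.77 and 2.97 in the cKO animals. The groups were thus more than a log2 unit apart, and the cKO animals differed more from each other than the controls did. The mean went from 1.68 ± 0.28 to 3.37 ± 0.56 (SD, n = 2 each). The difference was 1.69 ± 0.31 (SE; limma adjusted p = 0.135), with a 95% interval from 0.86 to 2.53. Within litters the signal was 4.89-fold higher in litter 1 and 2.14-fold higher in litter 2. Of all genes tested, 99.8% had a lower difference.

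Klk8, also called neuropsin, a trypsin-like protease of the upper epidermis, was the next largest. It measured 0.23 and 0.56 in control skin and 1.23 and 1.39 in cKO skin. Both litters gave a similar step, 2.00-fold in litter 1 and 1.78-fold in litter 2. The difference was 0.92 ± 0.15 (SE; limma adjusted p = 0.115), with a 95% interval from 0.52 to 1.32, and exceeded that of 99.2% of all genes tested.

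Klk11, another trypsin-like kallikrein, was dim, with processed signals of 51.9 and 52.1 in control skin and 75.4 and 83.7 in cKO skin. On the log2 scale it measured -3.86 and -3.91 in controls against -3.36 and -3.22 in cKO animals, so the groups lay apart. The difference of 0.60 ± 0.096 (SE; limma adjusted p = 0.115) had a 95% interval from 0.34 to 0.86. With normexp it came to 0.99, or to 0.25 with normexp after leaving out 3 spots below their local background.

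Klk10 measured 2.04 and 2.14 in control skin and 2.55 and 2.36 in cKO skin. The difference of 0.37 ± 0.11 (SE; limma adjusted p = 0.243) was 0.52 in litter 1 and 0.22 in litter 2. It came to 0.16 with normexp and to 0.35 with normexp without the 3 spots. Klk5, a trypsin-like kallikrein at the head of the cascade, measured 0.88 and 1.20 in control skin and 1.19 and 1.34 in cKO skin. Its litter 1 cKO animal was thus just below the litter 2 control, and its difference of 0.22 ± 0.15 (SE; limma adjusted p = 0.521) had a 95% interval from -0.17 to 0.62. The 2 controls differed from each other by 0.32, more than the genotypes did. Klk5 came to 0.07 with normexp and to 0.20 with normexp without the 3 spots. With 1 array left out it ran from 0.06 (without control replicate 1) to 0.39 (without control replicate 2), with 0.15 without cKO replicate 2.

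Klk7, which with KLK5 cuts the corneodesmosome proteins, was read by 3 probes, all far above background. The brightest measured 5.82 and 5.97 in control skin and 5.86 and 5.73 in cKO skin. The litter 1 cKO value thus lay between the controls and the litter 2 cKO value below both. The difference was -0.10 ± 0.11 (SE; limma adjusted p = 0.690), with a 95% interval from -0.38 to 0.18. The other probes gave -0.20 ± 0.12 and -0.06 ± 0.11. Litter 1 and litter 2 had opposite signs with the brightest probe (0.04 and -0.24), and the one probe of the 3 that crosses a splice junction was the only one lower on both cKO arrays than on both controls. With normexp the brightest probe came to -0.41, and with normexp without the 3 spots to -0.13. With 1 array left out it ran from -0.17 (without control replicate 1 or cKO replicate 1) to -0.03 (without control replicate 2 or cKO replicate 2).

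Klk14, a trypsin-like kallikrein that can also cut corneodesmosomes, gave processed signals of 9.68 and 11.8 in control skin and 19.6 and 31.6 in cKO skin. None of these was well above background, so no fold is given and the gene was in no test.

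**Figure D2:**
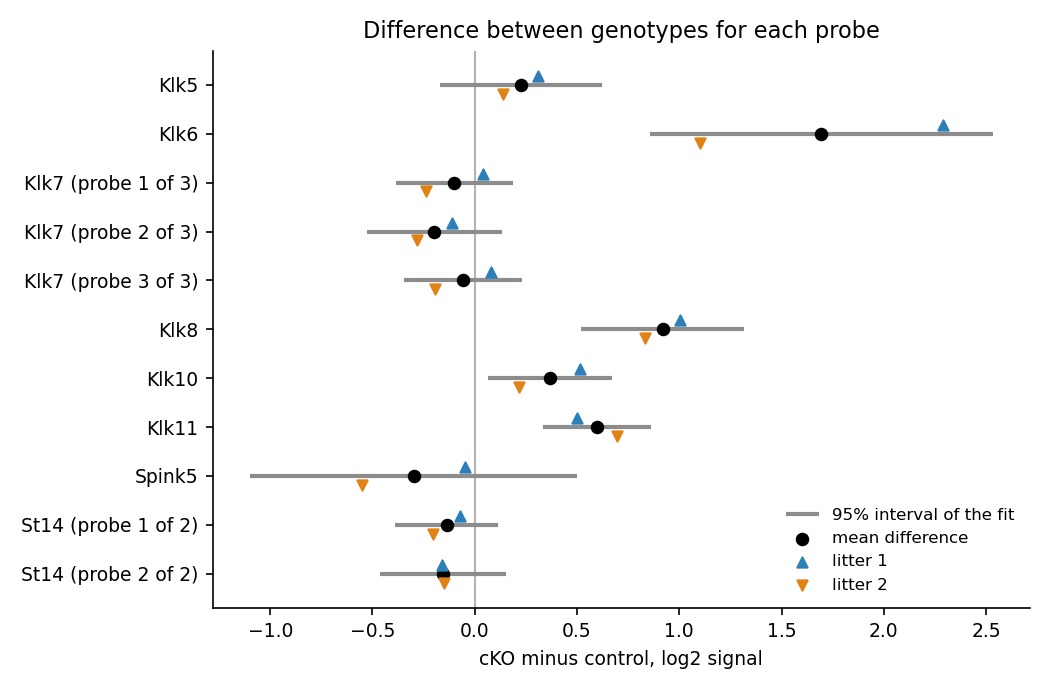
Difference cKO minus control in log2 signal (horizontal axis) for each of the 11 probes that passed the filter; black points are means over the litters, grey bars the 95% interval of the limma fit over all probes, and triangles the difference within litter 1 (blue, upward) and litter 2 (orange, downward). The intervals of Klk6, Klk8, Klk10 and Klk11 lie above 0, while those of all 3 Klk7 probes, of both St14 probes, of Klk5 and of Spink5 include it.

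Spink5, the gene of the inhibitor LEKTI, was read by 1 probe on chromosome 18 (44156359 to 44158457, mm9). It measured 4.09 and 3.80 in control skin and 4.05 and 3.25 in cKO skin. The litter 1 animals were nearly equal and the litter 2 cKO animal was the lowest of the 4, so the groups overlapped. The difference was -0.30 ± 0.30 (SE; limma adjusted p = 0.671), with a 95% interval from -1.10 to 0.50. It was -0.05 in litter 1 and -0.55 in litter 2, and it turned to 0.098 without cKO replicate 2. It came to -0.70 without cKO replicate 1, -0.15 without control replicate 1, -0.54 with normexp and -0.31 with normexp without the 3 spots. Set against Spink5 within each litter, the genotype difference of Klk6 was larger by 2.34 and 1.65, that of Klk8 by 1.05 and 1.38, and that of Klk7 by 0.09 and 0.31. These are differences of differences, given without a test.

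St14 encodes matriptase, a membrane-anchored protease of the epidermis. Its brighter probe (chromosome 9, 30897249 to 30897308, mm9) measured 4.39 and 4.52 in control skin and 4.32 and 4.31 in cKO skin. Both cKO arrays lay below both controls, by a small step. The difference was -0.14 ± 0.09 (SE; limma adjusted p = 0.526), with a 95% interval from -0.38 to 0.11. It came to -0.44 with normexp and to -0.08 without control replicate 2. The second probe, at 30908023 to 30910462, gave -0.15 ± 0.12 with overlapping groups.

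A fit over all 22190 probes that passed the filter was made as well. Of the 11 probes of the set that passed, 0 had an adjusted p under 0.05 in limma and 4 had an unadjusted p under 0.05, against 0.158% and 15.4% of all probes. The 4 were the single probes of Klk6, Klk8, Klk10 and Klk11.

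The kallikrein genes lie side by side on chromosome 7, and the 6 measured ones of the set fall within 74.3 kb by their probe positions, in the order Klk11, Klk10, Klk8, Klk7, Klk6 and Klk5. Klk7, with no clear difference, lies between Klk8 and Klk6, which had the largest differences of the set. Klk9, between Klk10 and Klk8, measured 0.49 ± 0.11 (SE; limma adjusted p = 0.173), with -3.27 and -3.48 in control and -2.84 and -2.91 in cKO skin. It came to 0.99 with normexp and to 0.32 with normexp without the 3 spots. Klk12, next to Klk11, was well above background on both control arrays and on 1 of the 2 cKO arrays, so it passed the filter only through the group where it was higher. Its mean was -3.40 ± 0.48 in control and -4.61 ± 0.73 in cKO skin (SD, n = 2 each; limma adjusted p = 0.295). Its difference turned to 0.54 with normexp but was -0.36 with normexp without the 3 spots, and no direction is drawn from it. Klk15 measured -1.71 ± 0.37 (adjusted p = 0.165), from -2.30 and -1.83 in control skin to -3.29 and -4.25 in cKO skin. It came to -0.18 with normexp and to -0.99 with normexp without the 3 spots. Klk4 measured 0.05 ± 0.09. In the list of 18 other kallikreins, 16 had a probe and 6 passed the filter. Of those 6, 0 passed the test in limma, and the median was -0.07. At an unadjusted p under 0.05 in limma, 1 was higher and 2 were lower (8.04% and 8.11% of all genes). The 2 lower were Klk15 and Klk12, so that count includes the gene from which no direction is drawn.

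**Figure D3:**
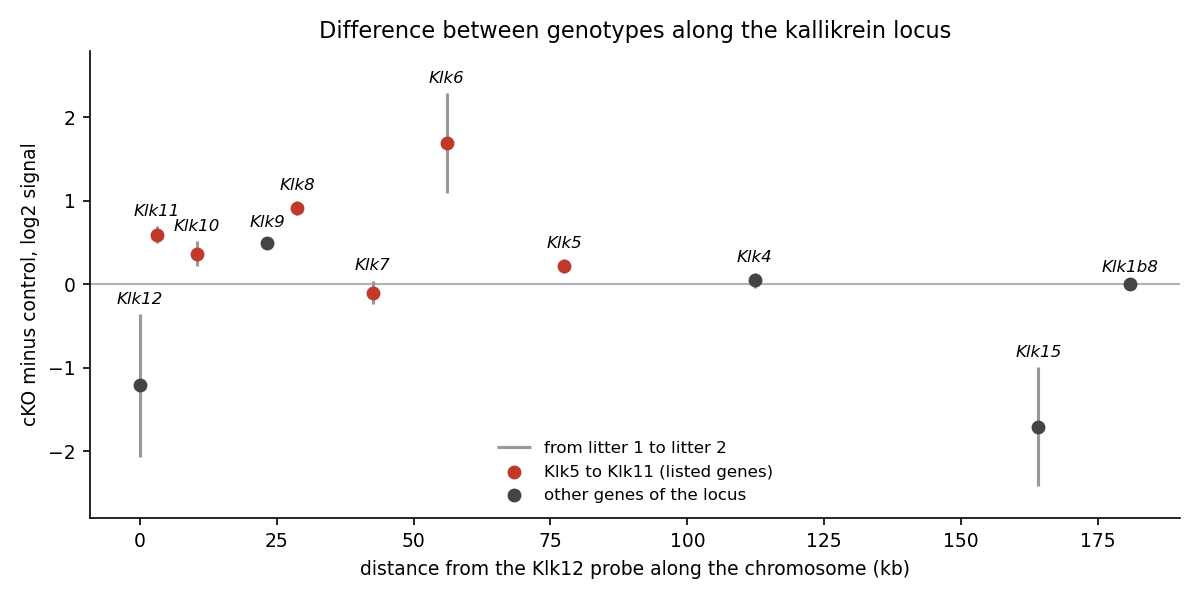
Difference cKO minus control in log2 signal (vertical axis) against the distance in kb from the Klk12 probe along chromosome 7, without the far Klk1b3; points are means over the litters and vertical lines run from the litter 1 to the litter 2 value. Klk11 to Klk5 (red, with Klk9 in grey) lie above 0 except for Klk7, while Klk12, not well above background on 1 of the 2 cKO arrays and of the other sign (0.54) with normexp, and Klk15 (-0.18 with normexp) are drawn below 0 with long lines.

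The sequence upstream of the starts was read as well, and a link to the differences was not tested. RefSeq promoter windows (GRCm38.p6, 250 bases before to 50 after a start) were matched by symbol for 8 of the 10 genes, in 10 windows. The letters GTTAAAA, chosen after these windows were read, occurred on either strand in 3 of the 10 windows and in 3.41% of all 32851 windows. As the letters were picked from these windows, the shares are no test. They are in capitals below, in 100 bases upstream of a start of Klk6, Klk8 and Klk10. Klk7 is shown as a gene that lacks them. Klk11, also higher on both cKO arrays than on both controls, lacks them too and is not shown. All sequences shown are 5′ to 3′ on the plus strand.
Klk6 (chr7:43825340-43825439): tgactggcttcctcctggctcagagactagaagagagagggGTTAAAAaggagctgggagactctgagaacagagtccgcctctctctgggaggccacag
Klk8 (chr7:43797462-43797561): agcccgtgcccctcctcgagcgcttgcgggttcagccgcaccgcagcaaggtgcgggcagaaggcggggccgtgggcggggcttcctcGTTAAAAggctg
Klk10 (chr7:43780944-43781043): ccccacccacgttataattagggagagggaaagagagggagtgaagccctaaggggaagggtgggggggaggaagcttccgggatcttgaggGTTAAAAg
Klk7 (chr7:43811184-43811283): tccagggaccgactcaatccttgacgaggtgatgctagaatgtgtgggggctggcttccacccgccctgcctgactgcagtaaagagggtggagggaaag
The run begins 69, 27 and 18 bases before the start in Klk6, Klk8 and Klk10. The Klk6 window is the downstream of its 2 annotated starts, and the upstream window lacks the run, as do both windows of Klk11 and those of Klk5, Klk13 and Klk14. The motif TATAAA was found in 0 of the 10 windows (13.6% of all windows) and the AP-1 motif TGANTCA in 0 (7.81%). The GC box GGGCGG was in 4 (35.7%). The matches describe letters in these windows and say nothing of a factor.

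The other proteases, inhibitors and substrates were taken from lists of the pathway. Of 24 other serine proteases of skin, 18 were measured, and 0 passed the test in limma. They include Cma1, Mcpt4 and Tpsb2, which are also in the list of mast cell markers. At an unadjusted p under 0.05, 2 were higher and 6 lower, against 8.04% and 8.11% of all genes, and the median was -0.06. Tmprss2, a membrane serine protease, came closest, from 0.17 and 0.09 in control skin to -1.05 and -1.28 in cKO skin, a difference of -1.30 ± 0.12 (SE; limma adjusted p = 0.0534). It passed under 4 of the 12 alternatives (quantile normalization, probes averaged, normexp without the 3 spots, and a variance trend). It did not pass under the other 8, with adjusted p of 0.0867 with litter as a block, 0.728 with normexp, 0.229 with no filter on dim probes, 0.0521 with the values of the authors' series table and 0.0761 to 0.195 with 1 array left out. Prss35 measured 0.67 ± 0.08 (adjusted p = 0.0844; 1.02 with normexp and 0.50 with normexp without the 3 spots). Tmprss4 measured 0.90 ± 0.14 (adjusted p = 0.114). Prss8 (prostasin), a protease that acts with matriptase, was looked up after its value was seen. It measured -0.40 ± 0.09 (adjusted p = 0.172), with 2.24 and 2.31 in control against 1.84 and 1.92 in cKO skin.

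Of 32 other protease inhibitors, 21 were measured and 0 passed in limma, with a median of 0.13. The list is of serine protease inhibitors but also holds Cst6, a cystatin, which inhibits cysteine proteases. At an unadjusted p under 0.05 in limma, 4 were higher and 2 lower (8.04% and 8.11% of all genes). Wfdc12, among the higher, was well above background on neither control array and passed the filter only through the cKO arrays. Cst6 and Wfdc12 were named after their values were seen. Wfdc2 measured 0.85 ± 0.12 (limma adjusted p = 0.101; 0.50 with normexp without the 3 spots) and Wfdc5 0.31 ± 0.10 (adjusted p = 0.251). Serpina1b, among the lower, passed the filter only through the controls and was not well above background on either cKO array. Its signal there was at least 1.86-fold lower (limma adjusted p = 0.146), and with normexp the sign of its difference turned, to 0.61. The difference was -0.37 with normexp without the 3 spots. Spint1 and Spint2, inhibitors of matriptase looked up after their values were seen, measured -0.10 ± 0.11 and 0.14 ± 0.09.

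Of 32 substrates and receptors of the kallikrein cascade, 26 were measured and 0 passed in limma, with 6 higher and 5 lower at an unadjusted p under 0.05 (8.04% and 8.11% of all genes) and a median of 0.04. The desmosomal cadherin Dsg3 measured -0.85 ± 0.09 (limma adjusted p = 0.0635). It passed under 1 of the 12 alternatives, a variance trend (limma adjusted p = 0.0498). Its difference came to -0.23 with normexp (adjusted p = 0.801) and to -0.63 with normexp without the 3 spots (adjusted p = 0.0536). The range of its adjusted p over the alternatives was thus 0.0498 to 0.801. Dsg4, a cadherin of hair and upper epidermis, measured -0.58 ± 0.10 (adjusted p = 0.121). It came to 0.011 with normexp and to -0.45 with normexp without the 3 spots. Hrnr (hornerin), a protein of the granular layer, measured 1.10 ± 0.19 (adjusted p = 0.123). Cdsn (corneodesmosin), a substrate of KLK5 and KLK7, and F2rl1, the receptor PAR2 that KLK5 can cleave, were looked up after their values were seen and measured -0.16 ± 0.11 and 0.05 ± 0.11.

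**Figure D4:**
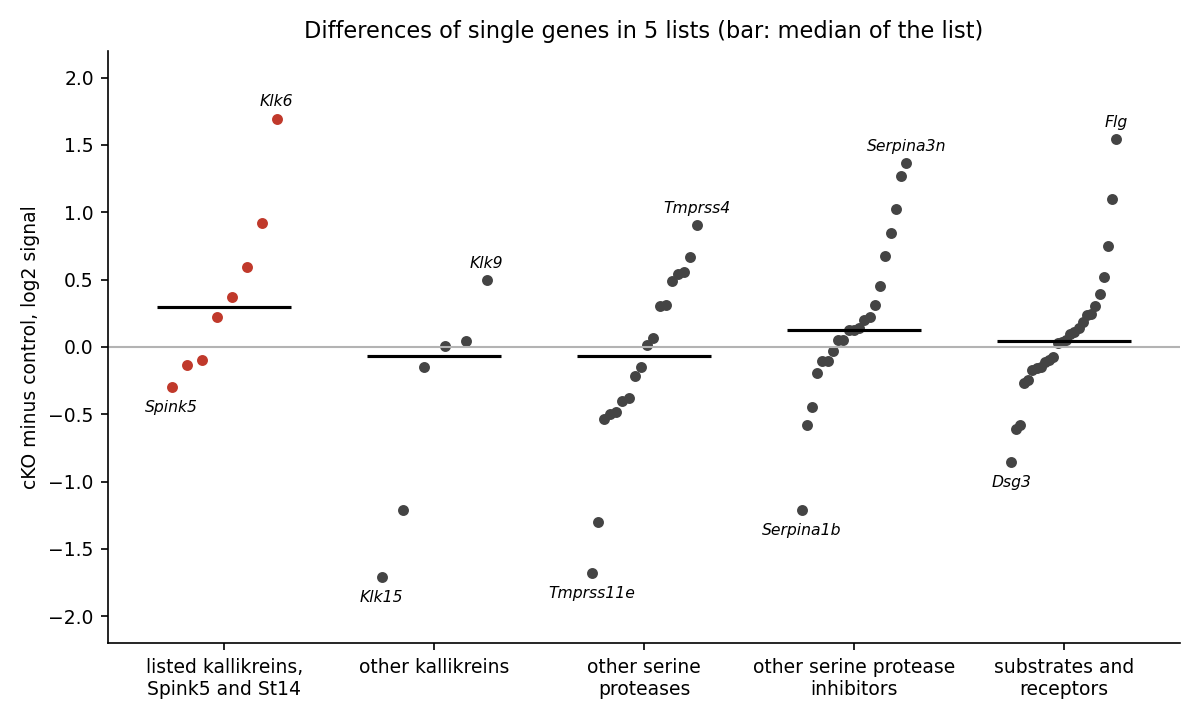
Difference cKO minus control in log2 signal (vertical axis) for every measured gene of the 5 lists, each sorted from low to high, with the median as a bar and the extreme genes named. The set of kallikreins, Spink5 and St14 (red) runs from Spink5 to Klk6, and the other lists spread on both sides of 0.

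Marker genes of the epidermal layers were read on the same arrays, and none passed the test in limma. In whole skin, fewer cells of a type and less RNA per cell cannot be told apart. Of 15 granular layer genes, all measured, 9 had higher and 6 lower values within each litter (40.4% and 32.1% of all genes), and their median was 0.31. Their summed signal over the 75th percentile was 708 to 733 in controls and 752 to 826 in cKO skin. Flg (filaggrin) measured 1.54 ± 0.27 and Casp14 0.75 ± 0.10, whereas Tgm3 measured -0.45 ± 0.10. Of 6 spinous genes 5 had higher cKO values within each litter (40.4% of all genes). Their median was 0.30 and their sums were 280 to 308 in controls and 383 to 453 in cKO skin. Of 8 basal keratinocyte genes 7 did so (median 0.17). Flg, Casp14 and Tgm3 were picked after their values were seen. The part of these layers in the kallikrein values was not tested. Medians of other cell types were -0.05 for the inner root sheath, -0.17 for the hair shaft, -0.13 for the sebaceous gland, -0.49 for T cells, 0.45 for mast cells, 0.18 for macrophages and Langerhans cells and -0.08 for fibroblasts. They were 0.59 for fat cells, 0.42 for skeletal muscle, -0.43 for red cells, -0.07 for endothelium and 0.28 for melanocytes.

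The mean profile of the 6 measured kallikreins over the 4 arrays, each gene centred on its own mean, was -0.41 and -0.21 in the controls and 0.36 and 0.25 in the cKO animals of litters 1 and 2. The genes closest to it, by root mean square distance over 4 arrays, were Neo1 (0.015), Slc16a9 (0.025), Mnd1 (0.036), Tsc22d3 (0.038) and Slco4a1 (0.042), among 13320 genes with a median distance of 0.32. Of the kallikreins themselves, Klk11 (0.13), Klk10 (0.13) and Klk8 (0.18) lay nearest, then Klk5 (0.22), with Klk7 (0.36) and Klk6 (0.59) farthest. Each of the 6 is part of that mean, so nearness to it is in part fixed in advance. Klk7 and Klk6 lay beyond the median distance of the 13320 genes. The distance counts size as well as shape. Klk6 had the signs of the mean at larger size, with -1.04 and -0.65 in the controls and 1.25 and 0.45 in the cKO animals. Klk7 was nearly flat, with -0.02 and 0.12 in the controls and 0.02 and -0.12 in the cKO animals. With 4 arrays, many genes can share such a profile.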

How the data were processed

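The authors deposited, per array, a scanner file of intensity values per spot, and a series table of log2 values. The file headers give Feature Extraction 10.7.3.1, the submitters' processing notes Agilent Feature Extraction 10.5. All 4 arrays (design 014868) were on 1 slide with 1 scan time. The deposited log2 table followed the scaled log2 processed signal, centred per probe (correlation at least 0.99988). Its column medians were -0.08 and 0.06 for the controls of litters 1 and 2 and -0.06 and 0.08 for the cKO animals.

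From the deposited intensity values, the processed signal was put on the log2 scale, and the 75th percentile of each array was subtracted. Control spots and outlier spots (51 to 66 per array) were left out. A probe was kept if measured on every array and called well above background by the scanner software throughout at least 1 genotype (22190 of 41174). A gene was its brightest such probe, named through the accession for 26690 probes. The lower limit for Serpina1b sets the control mean against, per cKO array, the dimmest signal well above background, or its own where higher. Genotypes were compared with limma 3.58.1 (R 4.3.3; lmFit and eBayes, no covariate, two-sided, Benjamini-Hochberg over all genes or all probes). Replicate numbers are litters per the labels and so pair the animals (deviations from group means correlated at 0.35 across genes). Litter as a block was an alternative, as no model is stated. The number of arrays limits the precision.

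Data were simulated for 2 against 2 arrays and 15552 genes, of which 200 were changed, with independent noise and no litter effect. There, 47.7% of the genes given a 2-fold change passed, 91.0% of those given 4-fold, and 5.02% of the calls were false. The rates hold for that setting, which lacks the shared deviations of littermates seen in these arrays.

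The members and lists were chosen with earlier results of these data known. Named by rule were all members, Adam17, the 3 genes of each other pathway list with the smallest p (none passed) and the 5 genes closest to the mean kallikrein profile. Klk4 and the genes marked in the text were added after their values were seen.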

Additional observations from a re-analysis of the deposited data

How the results depend on the processing

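None of the 8 measured genes passed the test in limma under any of the 12 alternatives, of which normexp without 3 spots below their local background was chosen after seeing the data. The lowest adjusted p were 0.0593 for Klk8 and 0.0711 for Klk6, both with a variance trend. The genes past the threshold numbered 53, but 0 with the replicate block (litter), 0 with normexp, 134 with normexp without those spots, 0 with no filter on dim probes, 193 with a variance trend, and 0 to 38 when 1 array was left out (0 without either control, 38 without cKO replicate 1 and 24 without cKO replicate 2). The block changed no call of the 8 genes. The median of the 8 genes was 0.30, 0.11 with normexp, 0.225 with normexp without those spots, and 0.19 to 0.40 with 1 array left out. In the other protease lists, 1 gene passed with quantile normalization, 1 with a gene's probes averaged, 1 with normexp without those spots and 2 with a variance trend. With normexp the sign turned for Klk12 (0.54), Serpina1b (0.61) and Dsg4 (0.011). With normexp without those spots it did not turn, at -0.36, -0.37 and -0.45 in that order. Leaving out 1 array gave -0.70 to 0.098 for Spink5, 1.30 to 2.09 for Klk6 and 0.75 to 1.08 for Klk8. Over all alternatives Klk11 ran from 0.25 to 0.99, Klk10 from 0.16 to 0.47, Klk5 from 0.06 to 0.39, Klk7 from -0.41 to -0.03, St14 from -0.44 to -0.08, Klk9 from 0.32 to 0.99 and Klk15 from -2.19 to -0.18. The lowest adjusted p among these was 0.0869, for Klk15 with normexp without those spots. Beyond the background correction and the sample left out, the cause of these shifts was not tested.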
